A study of Drosophila melanogaster with 2 samples.

Results

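Binding of the sugar-responsive factor sugarbabe (sug) was examined at the 7 genes of Drosophila melanogaster that encode Krüppel-like or Sp factors and were named for this account, cbt, Klf15, luna, dar1, btd, Sp1 and Spps. The rule that chose them names the gene family and uses no measured value, but they were picked with earlier results of these data known. All 7 were found in the Ensembl annotation, among 13968 protein-coding genes. For each gene, summits were taken from 5 kb upstream to 1 kb past its end. Of the 9342 summits in the set that passed the authors' irreproducible discovery rate (IDR) threshold, 16 fell in these windows, as did 81 of the 30000 summits called on the pooled reads, which include those 16.

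Chromatin was precipitated with an antibody against GFP from whole embryos aged 8 to 24 hours, of mixed sex, of 1 transgenic line that stably expresses sug with GFP at its C terminus. The labels do not name the promoter that drives the fusion. Whole embryos mix all cell types, so few cells with strong binding and many cells with weak binding cannot be told apart. There was 1 group with 2 biological replicates. Neither embryos without the tagged protein nor the control library was analysed here, so no summit below has been set against an untagged background. With no second condition there is no comparison to test, and all values are descriptions that carry no p-value. In place of an error, the ranks of the sites at and around the 7 genes are given in both replicate lists, each of 30000 summits, where rank 1 is the highest signal. The signal is the authors' own score and is comparable only within a list. No read counts were given, so the depth is unknown.

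Krüppel-like and Sp factors share a block of zinc fingers near the C terminus that reads GC-rich DNA of the GC box and CACCC box type. They work as activators or repressors, often at promoters. In flies, cbt (cabut) is a repressor induced by dietary sugar downstream of the Mondo sugar sensor, and also acts in dorsal closure, the sealing of the embryonic epidermis. Klf15 is the other family member known to respond to sugar. The genes dar1 and luna encode Krüppel-like factors, dar1 being known for dendrite growth in sensory neurons. The Sp branch holds btd (buttonhead), a head-patterning gene, its neighbour Sp1, which shares its role in limb growth, and Spps, which binds Polycomb response elements.

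The sequences that carry the description below are those under the strongest summits of cbt and dar1, under both cbt summits with a CACGTG E-box, between the start sites that flank the Spps promoter summit, and under the summit nearest to btd. They are read from the RefSeq copy of dm6 and printed 5′ to 3′ on the plus strand, 201 bases centred on the summit except for Spps, where the 88 bases between the start sites are shown. Capitals mark the words searched, on either strand, which were the GC box GGGCGG, the CACCC box, the GLI-type word ACCACCC, a cytosine run of CCCCCC, the GATA factor word GATAA, the E-box forms spelled CACGTG and also spelled CAGCTG, the GAGA factor word GAGAG, the DNA replication-related element word TATCGATA, and GGTCACAC, a word related to core promoter motif 1. A word on the minus strand appears as its reverse complement, and words may overlap.
cbt distal, chr2L:484581-484781: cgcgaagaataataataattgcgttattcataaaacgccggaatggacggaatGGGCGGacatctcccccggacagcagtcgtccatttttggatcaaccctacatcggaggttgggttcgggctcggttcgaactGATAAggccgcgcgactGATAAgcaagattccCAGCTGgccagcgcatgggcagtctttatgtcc
cbt middle, chr2L:480980-481180: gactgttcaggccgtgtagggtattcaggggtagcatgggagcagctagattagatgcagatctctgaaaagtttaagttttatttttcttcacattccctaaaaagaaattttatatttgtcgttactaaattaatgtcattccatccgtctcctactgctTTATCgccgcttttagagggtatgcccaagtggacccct
cbt shoulder, chr2L:481189-481389: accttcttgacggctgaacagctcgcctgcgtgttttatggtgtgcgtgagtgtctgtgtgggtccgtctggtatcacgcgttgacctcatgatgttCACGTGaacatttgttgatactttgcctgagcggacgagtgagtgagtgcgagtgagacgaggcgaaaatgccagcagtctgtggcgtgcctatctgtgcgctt
cbt proximal, chr2L:479937-480137: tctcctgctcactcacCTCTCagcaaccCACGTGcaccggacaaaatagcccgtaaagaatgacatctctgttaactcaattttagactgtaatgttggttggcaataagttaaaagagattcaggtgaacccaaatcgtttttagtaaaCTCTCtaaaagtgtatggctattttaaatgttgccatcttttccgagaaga
dar1 intron, chr3L:3632571-3632771: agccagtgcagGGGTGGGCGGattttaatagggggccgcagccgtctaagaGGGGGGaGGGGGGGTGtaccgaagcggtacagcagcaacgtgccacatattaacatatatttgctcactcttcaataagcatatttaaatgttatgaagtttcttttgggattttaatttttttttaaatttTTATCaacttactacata
Spps to CG13609, chr3R:24226935-24227022: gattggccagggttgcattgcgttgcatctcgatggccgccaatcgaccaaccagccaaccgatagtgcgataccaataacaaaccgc
btd upstream, chrX:9687657-9687857: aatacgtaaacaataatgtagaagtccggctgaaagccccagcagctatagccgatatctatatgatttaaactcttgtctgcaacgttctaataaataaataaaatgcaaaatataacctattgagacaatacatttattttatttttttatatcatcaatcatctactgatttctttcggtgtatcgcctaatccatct

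The strongest binding in the family was at 1 member. Summits of the IDR set lay in the windows of 4 of the 7 genes, against 56.1% of all protein-coding genes, so the number of genes reached is near the background. Near a transcription start (TSS), within 1 kb on either side, summits were found at 3 of the 7 (cbt, luna and Spps), against 39.3% of all genes. Pooled summits reached the same 4 genes, against 68.1% of all genes. At least 1 of the 100 highest IDR summits lay in the window of 1 of the 7 members, against 1.47% of all genes. That member was cbt, which had 2 of them. The 16 summits were split unevenly, with 7 at cbt, 4 at dar1, 3 at luna and 2 at Spps, and none at Klf15, btd or Sp1. Counted as distinct intervals, cbt and dar1 had 4 each, luna 3 and Spps 2. In the pooled list, 55 of the 81 member summits were at luna and 13 at cbt. Replicates taken singly gave the same 4 genes when as many of the highest summits were counted in each as the IDR set holds.

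**Figure D1:**
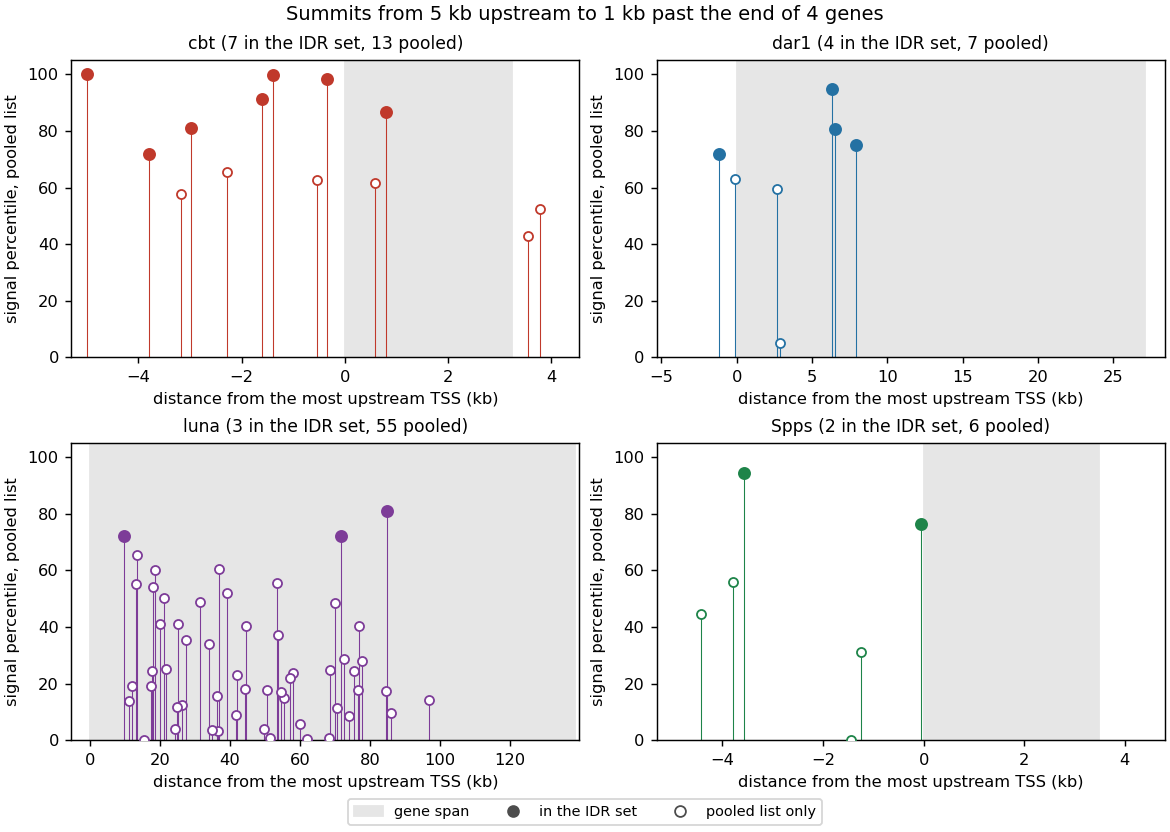
Each panel plots the pooled summits of 1 gene, from 5 kb upstream to 1 kb past its end, by distance from its most upstream TSS (kb, along the direction of transcription) and by signal percentile in the pooled list. Filled points are in the IDR set and open points in the pooled list only; the 7 filled points of cbt lie mostly upstream of the gene, and the 55 points of luna lie in the part of the gene nearer its start, with 3 of them filled.

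The cbt locus (FBgn0043364, 2L from 476446 to 479688, minus strand) was the most densely bound of the family. Its window of 9.243 kb held 7 IDR summits, or 7.57 per 10 kb, against a median of 0.884 per 10 kb over all gene windows, and 99.8% of those windows had a lower density. Windows with 7 or more IDR summits belonged to 312 genes (2.23%), and the median window length over all genes was 8.164 kb. The summits came in 4 distinct intervals, and 13 pooled summits fell in the same window.

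The highest cbt summit, at 484681, had a signal score of 10749 and ranked 13 of the 9342 IDR summits. It ranked 8 in replicate 1 and 35 in replicate 2. This site lies 4993 bp upstream of the cbt TSS and only 7 bp inside the 5 kb limit, and the matching replicate 1 summit lies 13 bp away. The nearest TSS of any annotated gene is that of cbt, and the nearest ush TSS is 6154 bp away. The next site in signal, at 481080 and 1392 bp upstream, had a score of 6567 and ranked 43 in the IDR set, 47 in replicate 1 and 38 in replicate 2. Both were thus among the 50 highest sites in each replicate.

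Nearer the start of cbt the signal was lower but the site was recovered as well. The summit at 480037, 349 bp upstream of the TSS, had a score of 1827 and ranked 452 in the IDR set, 410 in replicate 1 and 484 in replicate 2. A shoulder at 481289, in the same interval as the site at 481080, had a score of 633.6 and ranked 1526 in replicate 1, with no replicate 2 summit within 100 bp. The summit at 478897, 791 bp past the TSS and annotated both as 5′ UTR and as the first intron of cbt in different transcripts, had a score of 482.4 and ranked 3107 in replicate 1 and 6228 in replicate 2. Further upstream, the one at 482664 had a score of 362.4 and ranked 5973 in replicate 1 and 6161 in replicate 2. The weakest, at 483491, had 248.0 and ranked 11242 in replicate 1 and 9403 in replicate 2. In the IDR set, whose scores run from 223.8 to 24384, the cbt summits thus ranked from 13 to 8484. The highest pooled summit of the window that missed the set, at 481972, had 200.9 and ranked 10331 in the pooled list.

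The cbt gene sits inside ush, which encodes a cofactor of GATA factors and runs the other way from 476220 to 540560. All 7 cbt summits lie in the span of ush, in its first intron, which is 49060 bp long in the transcript FBtr0333012. The ush span holds 21 IDR summits, and the highest of the 14 outside the cbt window ranked 865. That one, at 485893, is 6205 bp upstream of cbt and 1205 bp outside the window, shares an interval with the site at 484681, and ranked 898 in replicate 1 and 1045 in replicate 2. A further 3 IDR summits lay within 10 kb upstream. The one at 486094 had 617.5 and ranked 2167 in replicate 1 and 4442 in replicate 2. The one at 487379 had 282.9 and ranked 8482 in replicate 1 and 8014 in replicate 2, and the one at 488448 had 237.4 and ranked 6900 in replicate 2, with no replicate 1 summit within 100 bp. On the other side of cbt the nearest IDR summit, at 472614, lay 2832 bp past the window and 399 bp from the TSS of MED15. It had 273.3 and ranked 3539 in replicate 1, with no replicate 2 summit within 100 bp. The lists do not say which of the overlapping genes a site serves. Having 2 or more of the 100 highest IDR summits in its window was shared by 10 protein-coding genes at 5 loci (cbt and ush form 1 of them, and sug itself another).

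At dar1 (FBgn0263239, 3L from 3626352 to 3653442, plus strand) the 4 IDR sites were mostly of low signal and sat away from the start. Their percentiles in the IDR set ran from 10.1 to 83.2, with a median of 28.7. The strongest, at 3632671, is in the first intron, which is 17497 bp long, 6319 bp past the TSS. It had a score of 884.0 and ranked 1568 in the IDR set, 2279 in replicate 1 and 1202 in replicate 2. A neighbour at 3632870 had 355.5 and lay at percentile 48.1 of replicate 1 and 79.7 of replicate 2. That was the largest difference among the 14 member sites with a partner in both replicates. The third intronic site, at 3634269, had 280.6 and ranked 8356 in replicate 1 and 8425 in replicate 2. Upstream of the gene, at 1198 bp from the TSS, the site at 3625154 had 250.7 and ranked 13548 in replicate 1 and 5879 in replicate 2.

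The dar1 start itself carried only a summit below the IDR threshold. It lies 121 bp upstream of the TSS at 3626231, had a score of 185.7 and ranked 11062 in the pooled list. It ranked 16920 in replicate 1, where the matching summit is 94 bp away, and 16743 in replicate 2. A stronger replicate 1 summit, at 3626125 and ranked 8622, lies 227 bp from the TSS and just beyond the matching distance of 100 bp. Outside the window the nearest IDR summits were 4810 bp away upstream, at 3616542, and 104342 bp away downstream, at 3758784. The first had 750.5, lay 1160 bp from the TSS of CG10357, and ranked 3250 in replicate 1 and 1508 in replicate 2. The second had 373.9, lay 372 bp from the TSS of CG32264, and ranked 5600 in replicate 1 and 5815 in replicate 2. The window of dar1 held 1.21 IDR summits per 10 kb, more than 56.9% of all gene windows. Only 56.1% of gene windows held any IDR summit, so most windows of lower density held none.

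The longest gene of the family, luna (FBgn0040765, 2R from 10977956 to 11116378, minus strand), had many weak summits and few that passed the threshold. Its window of 144.4 kb held 55 pooled summits and 3 IDR summits, or 0.208 IDR summits per 10 kb. That was above 44.3% of gene windows, against a median of 0.884 per 10 kb. Only 56.1% of gene windows held any IDR summit, so nearly all windows of lower density held none. The pooled density of 3.81 per 10 kb was above that of 61.8% of gene windows, of which 68.1% held any pooled summit. The 55 pooled summits had a median percentile of 22.9 in the pooled list, and the best of the 52 that missed the IDR set ranked 10393. Replicate 1 had 51 summits in the window and replicate 2 had 47. Of the pooled summits, 20 had a partner within 100 bp in both replicates, 16 in replicate 1 alone, 11 in replicate 2 alone and 8 in neither.

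Of the luna sites in the IDR set, 2 lie deep in the second intron, which is 108407 bp long. The one at 11031575 is 75241 bp from the nearest luna TSS, had a score of 360.0, and ranked 5708 in the IDR set, 6768 in replicate 1 and 4966 in replicate 2. The one at 11044603, at 62213 bp, had 251.3 and ranked 12308 in replicate 1 and 6683 in replicate 2. The third, at 11106718, is 98 bp inside the downstream of the 2 luna start sites, had 252.9 and ranked 7999 in replicate 2, with no replicate 1 summit within 100 bp. At the upstream start site the nearest pooled summit was 9660 bp away. The pooled summits spread over 87218 bp with a median spacing of 1105 bp, and none lay in the last 41544 bp of the gene, where replicate 2 alone had 2 weak summits. That stretch holds an annotated roo element, from 11009870 to 11018985, and a shorter 297 element; the part of repeats in the lack of summits was not tested. The nearest IDR summits outside the window were 28741 bp away upstream, at 11150119 near the TSS of CG12391, and 82697 bp away downstream, at 10894259 near that of cag. The first had 246.9 and ranked 10180 in replicate 1 and 7712 in replicate 2, and the second had 777.6 and ranked 3581 in replicate 1 and 1270 in replicate 2.

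Spps (FBgn0039169, 3R from 24223445 to 24226934, minus strand) was bound at its start at a low level. The summit at 24226989 lies 55 bp upstream of the Spps TSS and 34 bp from that of CG13609, which is transcribed in the other direction, so it names the pair and not 1 gene. It had a score of 298.1 and ranked 7072 in the IDR set, 7709 in replicate 1 and 6644 in replicate 2. The summit lies between the start sites in the 88 bases printed above. GATAA and GAGAG were found within 100 bp of it, but not within those 88 bases. The other IDR summit of the window, at 24230511, had a score of 830.1 and ranked 1730 in the IDR set, 4336 in replicate 1 and 1029 in replicate 2. It is 3577 bp upstream of Spps but 51 bp from the TSS of mask. With a window of 2 kb upstream it falls out, and the highest percentile of Spps in the IDR set is then 24.3 in place of 81.5. On the other side, an IDR summit at 24222055, with a score of 597.4, lay 390 bp past the window and 90 bp from the TSS of twin. It ranked 5418 in replicate 1 and 1914 in replicate 2. Upstream, the nearest was 28044 bp beyond the window, at 24259978, 490 bp from the TSS of jar, with a score of 578.9 and ranks of 4530 in replicate 1 and 2248 in replicate 2.

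Klf15 (FBgn0025679, X from 4770557 to 4771588, minus strand) had no summit of any of the 4 lists in its window. The nearest IDR summits were 62181 bp beyond the window on its downstream side, at 4707376, and 130188 bp beyond it upstream, at 4906776. They had scores of 296.8 and 746.7 and are nearest to the TSSs of Proc-R and CG6927. The first ranked 6597 in replicate 2 and had no replicate 1 summit within 100 bp, and the second ranked 3832 in replicate 1 and 1336 in replicate 2. The interval between them, 199.4 kb, ranked 45 in length among the 9336 gaps between neighbouring IDR summits, whose median was 3203.5 bp, and 10 among the 1541 on the X. It holds 10 protein-coding genes whole, Klf15 among them. A gap around a window without summits must be longer than that window, here 7.032 kb, so part of this length is built in. In the pooled list the gap around Klf15 was 195.1 kb and ranked 31 of 29994. The closest summit to the Klf15 TSS in any list was 1 of replicate 2, at 4762455 and 9133 bp away, which ranked 8958 there while the nearest replicate 1 and pooled summits were 63873 and 63957 bp away. The sequence of the gap holds no unknown bases, and its GC content of 41.7% is near the 42.2% of the main chromosomes.

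The neighbouring Sp genes btd (FBgn0000233, X from 9694186 to 9697558, plus strand) and Sp1 (FBgn0020378, X from 9729648 to 9756369, plus strand) share 1 stretch without IDR or pooled summits. It runs for 91.0 kb from 9687757 to 9778734, is the same in both lists, and holds these 2 protein-coding genes only. Among IDR gaps it ranked 245 of 9336, and among pooled gaps 150 of 29994. Part of this length is built in, because the stretch must exceed the windows of 9.373 kb for btd and 32.722 kb for Sp1. Replicate 1 had no summit inside it. Replicate 2 had 1, at 9692705, 1481 bp from the btd TSS, with a rank of 24706 near the bottom of its list.

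The stretch is bounded on the btd side by a well recovered site. The summit at 9687757, 6429 bp upstream of btd and 1429 bp outside its window, had a score of 1541 and ranked 602 in the IDR set, 607 in replicate 1 and 718 in replicate 2, with its position the same to the base in all 3. It is 432 bp from the TSS of lncRNA:CR42657, and 2 further sites, at 9686217 and 9686018, lie next to the TSS of nej, the CBP acetyltransferase gene, with scores of 572.5 and 842.8. They ranked 4131 and 2298 in replicate 1 and 2615 and 1389 in replicate 2, in the same order. On the Sp1 side the site at 9778734 had 508.5, lay 8 bp from the TSS of CG1354, and had a rank of 2712 in replicate 2 and no replicate 1 summit within 100 bp. A window of 10 kb upstream therefore gives btd 3 IDR summits, each nearer to another gene's start.

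**Figure D2:**
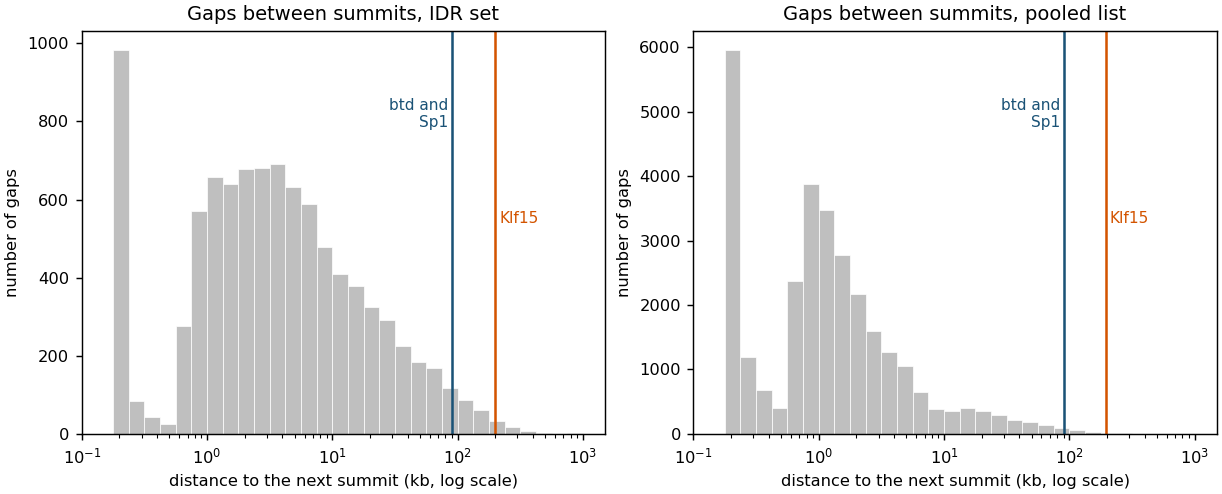
The histograms show the number of gaps between neighbouring summits by their length (kb, log scale), on the left for the IDR set and on the right for the pooled list. Vertical lines mark the gaps that contain Klf15 (199.4 kb and 195.1 kb) and both btd and Sp1 (91.0 kb in both lists), which lie in the right tail of each distribution. The marked gaps hold whole gene windows without summits, so each must be longer than its window, and part of its length is built in.

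Both replicates gave most of the member sites. Of the 16 IDR summits, 14 had a partner within 100 bp in both replicate lists (87.5%), against 90.1% of all IDR summits, and none lacked one in both. The IDR set was made by the authors from these lists, so this share is no independent measure. Across those 14 the percentile in replicate 2 differed from that in replicate 1 by a median of 4.80 points, against 4.86 points over all IDR summits. Replicate 2 minus replicate 1 was -0.09 points at 484681, 0.03 points at 481080 and -0.25 points at 480037, the strongest cbt sites. The difference was largest at 3632870 and 3625154 of dar1, with 31.6 and 25.6 points more in replicate 2, and at 11044603 of luna, with 18.7 points more in replicate 2.

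**Figure D3:**
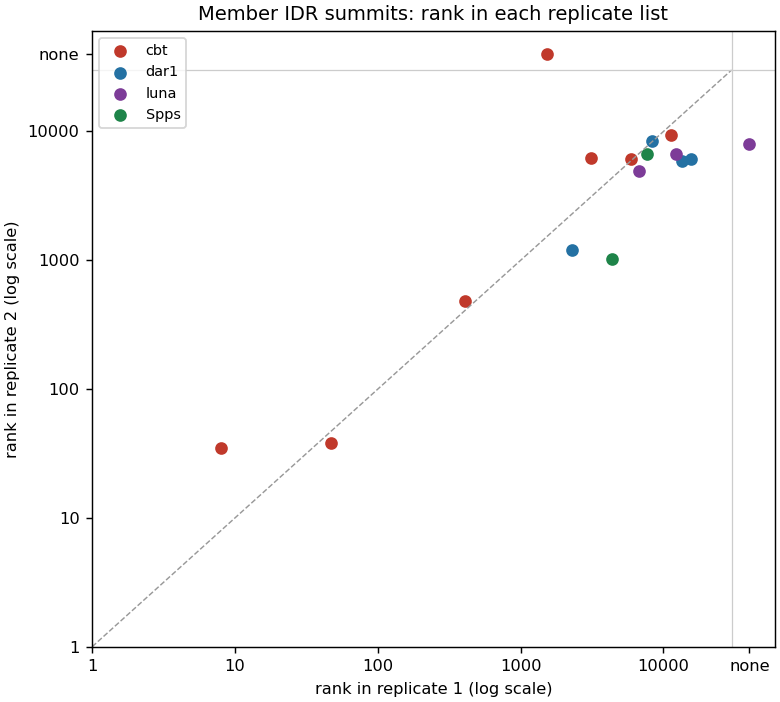
Each point is a member summit of the IDR set, placed by its rank in the replicate 1 list (horizontal) and the replicate 2 list (vertical), both on log scales where low ranks mean high signal; "none" marks a summit without a partner within 100 bp. The cbt sites with IDR ranks 13 and 43 stand alone at the lower left, 1 cbt site lacks a replicate 2 partner and 1 luna site lacks a replicate 1 partner.

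In position the member sites were mostly intronic. Of the 16, 10 lay in introns more than 1 kb from a TSS, 5 within 1 kb of a TSS and 1 in intergenic sequence. Over all IDR summits 26.3% were in such introns, 64.8% within 1 kb of a TSS and 6.24% intergenic. Of the 10 intronic sites, 5 are upstream of cbt and count as intronic because ush surrounds them. The GC content of the 201 bases around the summit had a median of 43.8% over member sites, against 41.3% over all sites, and ran from 27.4% at the dar1 site 3634269 to 58.7% at the luna site 11031575.

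Words of the family's own type and of sugar signalling were searched within 100 bp of each summit. The GC box GGGCGG, the core word of Sp and Krüppel-like factors, was found at 3 of the 16 sites, against 7.02% of all IDR sites. These were the strongest summits of cbt, dar1 and luna. Within 50 bp the GC box was at 2 of 16 sites, at cbt and luna but not dar1, against 3.65% of all IDR sites. CACCC occurred at 4 of 16, against 24.8% of all sites. The strongest dar1 site held both, overlapping by a base, and a second CACCC that overlaps a run of cytosines. CACGTG, the E-box that Mondo-type and Myc-type factors can bind, was found at 2 of 16, against 3.19% of all sites. Both are at cbt, at the proximal summit 480037 and at the shoulder 481289, where the word spans the summit base itself. The cytosine run CCCCCC occurred at 3 of 16 sites, 2 of them at dar1 and 1 at luna, against 9.07%.

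GATAA was present at 8 of 16 member sites, against 53.9% of all sites. GAGAG was present at 6 of 16, against 26.0%, and CAGCTG at 1 of 16, against 10.8%. The GLI-type word ACCACCC, related to the zinc finger class of sug itself, was at 0 of 16, against 3.18% of all sites. TATCGATA and GGTCACAC were also at 0 of 16, against 3.76% and 2.89%. With 16 sites, of which 7 belong to 1 gene, these counts describe the sites and nothing more. The summit upstream of btd, with an AT-rich window of 30.8% GC, held none of the words.

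Genes that work with the members were bound to different extents. The lists below were drawn up with earlier results of these data known, so their counts describe the listed genes and are no independent evidence. All 16 genes of a list of sugar and energy regulators had an IDR summit in their window, against 56.1% of all protein-coding genes, and 14 had one within 1 kb of a TSS, against 39.3%. That list includes sug itself, the gene whose product was precipitated and which holds the highest summit of the set. The next in signal were Max, the Myc partner, with 13673 (rank 8 of the IDR set) at a site nearest to the TSS of Aldh7A1, and ERR, a nuclear receptor of energy metabolism, with 6201 (rank 46). Mondo, which acts upstream of cbt and was picked after its values were seen, had 8 IDR summits in its window, the highest with a score of 1907 and ranks of 438 in replicate 1 and 417 in replicate 2. That site lies 3396 bp from its nearest TSS, which is that of Gr39a.

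Co-repressor genes and genes of dorsal closure were reached as widely, but at lower signal. The highest IDR percentile per gene had a median of 95.0 in the list of sugar and energy regulators. That median was 69.2 in the co-repressor list and 67.9 in the dorsal closure list. All 7 genes of the Sin3 co-repressor and histone deacetylase list had an IDR summit in the window and within 1 kb of a TSS, against 56.1% and 39.3% of all protein-coding genes. They were led by Sin3A, which encodes the scaffold that cbt is known to bind, with 2130, and the co-repressor CtBP with 1681. In the JNK and dorsal closure list 10 of 10 genes were reached and 8 within 1 kb of a TSS, against the same 56.1% and 39.3% of all genes. The highest there were aop, an Ets repressor, with 3626, and the kinase gene Mkk4, with 2686 at a site 119 bp from the TSS of SLIRP2. Of the factors of Polycomb response elements, the class to which Spps belongs, 7 of 9 were reached and 6 within 1 kb of a TSS, with the same shares over all genes. Trl, the GAGA factor, had 8569 (rank 20, nearest to CG42507) and Adf1 had 3683, whereas pho and z had no pooled summit in the window.

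Patterning genes stood closer to the background. In the list of head and limb genes that share functions with btd and Sp1, 5 of 10 had an IDR summit in the window and 3 within 1 kb of a TSS, against 56.1% and 39.3% of all genes. The highest were hth with 948.0 and dac with 605.1, and Dll, tll, ap, slp1 and wg had no pooled summit in the window. The hth site lies 47360 bp from its nearest TSS, and the dac site 381 bp from the TSS of Nepl8. In the list of dendrite and neuron identity genes related to the role of dar1, 6 of 10 were reached and 5 within 1 kb of a TSS, with ab highest at 754.4. Of the 3 other genes with fingers of the Krüppel-like or Sp type, CG3065 had 2 IDR summits, the higher with 979.9. That higher summit lies 77 bp from its nearest TSS, which is that of the gene or. The terminal gap gene hkb and CG42741 had no pooled summit. Genes in these lists differ in length and share summits with neighbours, and the counts were not adjusted for either.

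**Figure D4:**
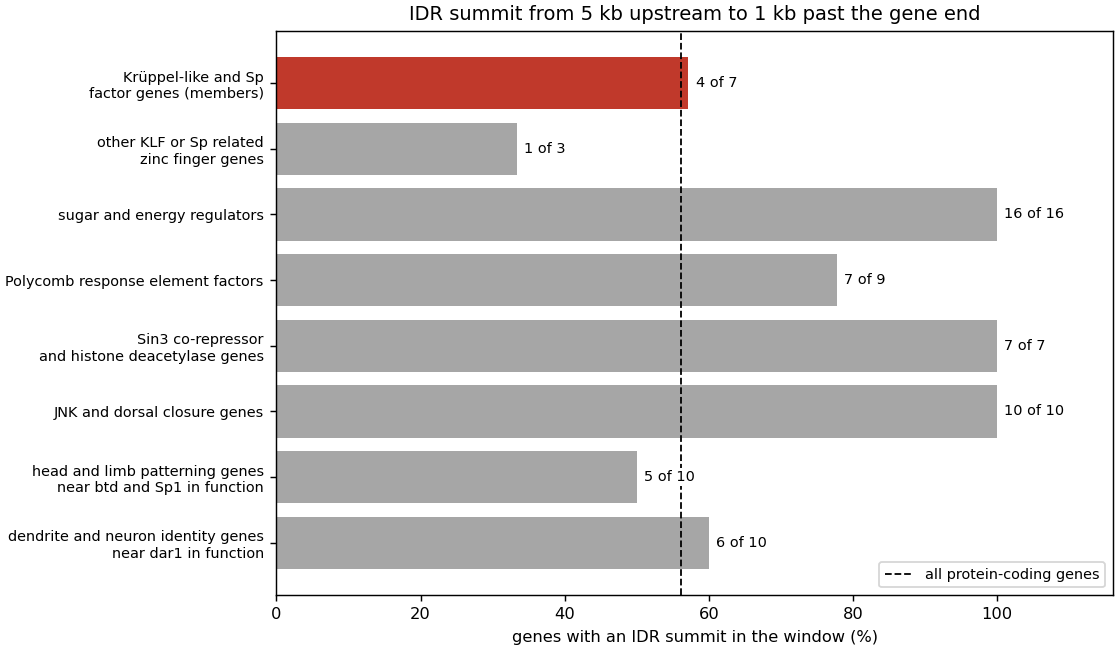
Bars give the percentage of genes with an IDR summit from 5 kb upstream to 1 kb past the end, for the family at the top and for each gene list below, with the counts beside the bars. The dashed line marks all protein-coding genes (56.1%); the family, at 4 of 7, lies next to it, and 3 lists reach all of their genes.

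The genes with the most similar strongest sites were found from the ranks of the highest summit in the window in 3 lists, pooled, replicate 1 and replicate 2, over the 2 samples. For cbt, the ranks in its window were 13, 47 and 35. The replicate 1 summit of the strongest cbt site, ranked 8, lies just outside the window. The 47 is thus the replicate 1 rank of the site at 481080, so these ranks do not come from a single site. The nearest genes were CG11241, CG7369 and the gene between them, at a summed log10 difference of 0.507. They share a site ranked 32, 45 and 28. For dar1, with 1568, 2279 and 1202, they were CG13698, mRpS26 and mus304, which share a site ranked 1543, 2285 and 1203 (difference 0.00848). For luna, with 5708, 6768 and 4966, they were CG46320 and sif, which share a site (0.0170), and CG14269 (0.0179). For Spps, mask and Spase22-23 have the same site in their windows, and Agps came next at 0.0288.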

How the data were processed

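Summits of sug-GFP ChIP-seq from whole embryos, in 1 group with 2 biological replicates, were read from 4 peak lists. Per the text files deposited with them, the authors called peaks on dm6 for each replicate and for the pooled reads, each with a control, and derived the IDR set from these lists. The names of aligner and peak caller were not given in the sources used here. The signal score per summit is the authors' and was used only within a list; the deposited −log10 q is 4.38 in every IDR row and ranks nothing. Depth is unknown, so no precision was derived from it.

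Coordinates are 1-based, genes are from Ensembl release 115 on the same assembly, and the background is 13968 protein-coding genes. A replicate summit within 100 bp counted as the same site. Percentiles count summits with the same or lower signal. Named genes are the members, the nearest start sites, up to 3 genes per list by signal score, and the nearest 3 by rank; other genes, such as Mondo and those without a pooled summit, were named after their values were seen. Of the list symbols, 2 were found as RefSeq synonyms, CG9895 of CG42741 and Sds3 of CG14220. Members and lists were chosen with earlier results of these data known. Window counts and word searches were tested on simulated data. Python 3.11.15, numpy 2.4.6, pandas 2.3.3 and matplotlib 3.10.9 were used.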

Additional observations from a re-analysis of the deposited data

How the results depend on the processing

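The number of members with an IDR summit stayed within 1.5 times its value under every alternative run, and was 4 with either replicate alone. The 16 member summits became 7 in the gene spans alone, 7 in the 4671 IDR summits with the higher signal and 81 in the pooled list; with 1 replicate left out they were 12 to 17. In the replicate 1 list the strongest cbt site lies just outside the window. With 2 kb upstream the highest percentile of Spps in the IDR set was 24.3 and that of cbt 99.6, and in the gene span alone that of cbt was 57.7. The head and limb list had 3 genes in those higher-signal summits and 3 to 7 with 1 replicate left out. Within 1 kb of a TSS it had 3, against 39.3% of all genes. The list of other Krüppel-like or Sp genes had 1 to 2 with 1 replicate left out. Shares of all genes for those higher-signal summits or for 1 replicate are not given here, so counts at these settings have no background beside them. Among single genes and words, 22 values moved and 62 did not. With distinct intervals in place of summits, the cbt count was 4 in place of 7 and that of dar1 stayed at 4. Within 50 bp of the summit, CACGTG was at 1 of 16 member sites, against 1.53% of all IDR sites, CAGCTG at 0 against 5.76%, GAGAG at 1 against 12.9% and GATAA at 2 against 34.3%. Within 150 bp the cytosine run was at 5 of 16, against 10.9%. The causes were not tested. No paired analysis was possible because there is 1 group. Unknown depth limits every statement on a lack of summits: a site under the cap of 30000 is not listed.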
